A study of Mus musculus with 6 samples.

Results

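Caveolae are small flask-shaped pits of the plasma membrane, abundant in fibroblasts, adipocytes and endothelial cells, which buffer membrane tension and gather cholesterol and signalling proteins. Their coat is built by caveolins, which insert into the inner leaflet, and by cavins, which assemble on the caveolins from the cytosol. The neck and curvature are held by EHD and PACSIN proteins, whereas flotillins form separate membrane domains that do not need caveolin.

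The 10 genes described here were found in the deposited table by their symbols, out of 19078 genes listed. They are the caveolins *Cav1* and *Cav2*, the cavins *Ptrf*, *Sdpr* and *Prkcdbp*, the membrane-shaping genes *Ehd2*, *Pacsin2* and *Pacsin3*, and the flotillins *Flot1* and *Flot2*. *Ptrf*, *Sdpr* and *Prkcdbp* are older names of *Cavin1*, *Cavin2* and *Cavin3*.

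The cells were immortalized mouse fibroblasts (MF), and RNAseq of poly(A)-selected RNA gave 3 libraries for *Ms4a15* OE cells and 3 for control cells. Per the paper's methods, the fibroblasts are embryonic and male, with conditional *Gpx4* alleles and a tamoxifen-responsive Cre (Cre-ERt2). In the pooled *Ms4a15* OE cells a CRISPR activation system and a guide raise *Ms4a15* from its own locus. Control cells are labelled wild type, and in the paper they are fibroblasts infected with an empty lentivirus. Whether they also carry the activation system is not stated outright in the paper's methods. No drug treatment is labelled for either group, and nothing in the labels says whether the libraries of a group came from separate cultures. The value analysed for each gene is the authors' mean of normalized counts over all 6 libraries, *Ms4a15* OE and control together, so it has no error between replicates and no difference between the groups was computed here.

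*Ms4a15* itself had a mean of 638 normalized counts over the 6 libraries, which does not show in which libraries the gene was raised. The size factors of the libraries, read from 1267 genes with a single read in a single library, ran from 0.887 to 1.14, and the means of all genes added up to 40991755 normalized counts. Of the fibroblast markers fixed for the check of the cell type, 9 of 9 had a mean of at least 10 normalized counts. They ran from 278 for *Pdgfra* to 135155 for the collagen gene *Col1a2*. Over all genes, 12914 of 19078 reached a mean of at least 10. The epithelial markers reached that mean in 1 of 5 genes, with *Krt8* at 10.9, and the endothelial markers in 2 of 5, with *Cdh5* at 107. Of 5 muscle markers, 4 have no row in the table, and *Des* was at 119. The adipocyte markers were between 0.364 and 10.5 in the 3 genes listed, and *Lep* has no row. The myeloid markers were between 11.1 and 534 in the 4 genes listed, with *Lyz2* the highest, and *Emr1* has no row. These marker levels were not apportioned to either group, and their part in the levels below was not tested.

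All 10 genes reached a mean of at least 10 normalized counts, as did 12914 of all 19078 genes. Their means ran from 1110 normalized counts for *Pacsin3* to 15635 for *Ptrf*, a 14.1-fold range, and each was above the median of all genes in the table, 237. Among the 12914 genes whose mean reached 10, the share with a lower mean ran from 50.5% for *Pacsin3* to 96.7% for *Ptrf*. It was 53.5% for *Flot1* and 55.1% for *Prkcdbp*, so these and *Pacsin3* lay near the middle. For the others it ran upwards from 78.8% for *Flot2*. Together the 10 genes took 0.146% of the summed means of all genes. A 95% Poisson interval of the reads behind each mean was at most 2.41% of the mean to either side. This interval covers counting error only, and leaves out the spread between libraries and any difference between *Ms4a15* OE and control. Since longer transcripts give more reads, levels of different genes are compared below per kilobase (kb), either of coding length or of the longest protein-coding transcript in the mouse annotation (GENCODE vM21, GRCm38). Coding length leaves out the untranslated parts of a transcript, from which reads also come. Levels by coding length are therefore raised most for genes whose transcripts are largely untranslated.

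**Figure D1:**
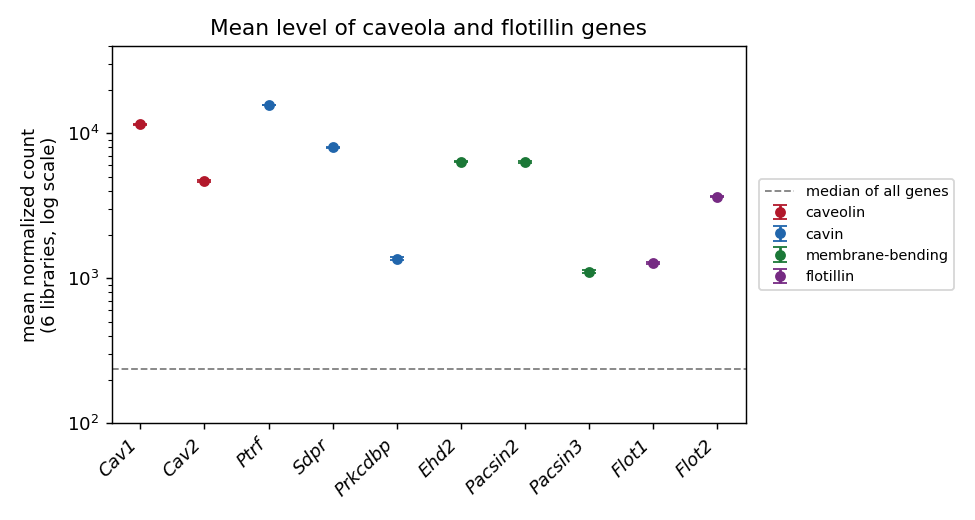
Mean normalized count over the 6 libraries (log scale) for each of the 10 genes, coloured by role, with bars for the 95% Poisson counting interval, mostly hidden by the points; the dashed line is the median of all genes, 237. Every point lies above the line, from *Pacsin3* at 1110 to *Ptrf* at 15635.

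The caveolins *Cav1* and *Cav2* are neighbours on the forward strand of chromosome 6. *Cav2* spans chr6:17281185-17289115 and *Cav1* spans chr6:17306335-17341452, with 17.2 kb between them. The region around each start site is shown for this pair, which share a locus and a direction of transcription, and for *Sdpr*, whose window had the lowest GC content of the group. Each window runs from 250 bases before to 50 after a RefSeq start site (GRCm38.p6), 5′ to 3′ on the gene's strand. Capitals mark the GC box, which reads GGGCGG. They also mark the TATA box, which reads TATAAA, and the CCAAT box, which reads as its name. All were searched on both strands, so that capitals may show the reverse complement.
Cav1: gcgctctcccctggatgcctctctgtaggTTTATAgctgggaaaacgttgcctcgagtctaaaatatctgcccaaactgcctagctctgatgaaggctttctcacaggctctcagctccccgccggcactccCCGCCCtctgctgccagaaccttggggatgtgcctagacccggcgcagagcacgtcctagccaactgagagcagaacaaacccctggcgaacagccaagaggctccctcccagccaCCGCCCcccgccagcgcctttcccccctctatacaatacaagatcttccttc
Cav2: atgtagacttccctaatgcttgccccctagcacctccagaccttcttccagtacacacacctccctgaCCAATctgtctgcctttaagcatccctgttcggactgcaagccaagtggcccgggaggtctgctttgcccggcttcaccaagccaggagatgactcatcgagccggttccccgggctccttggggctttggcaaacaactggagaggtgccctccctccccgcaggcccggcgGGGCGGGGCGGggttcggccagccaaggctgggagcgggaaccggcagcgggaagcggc
Sdpr: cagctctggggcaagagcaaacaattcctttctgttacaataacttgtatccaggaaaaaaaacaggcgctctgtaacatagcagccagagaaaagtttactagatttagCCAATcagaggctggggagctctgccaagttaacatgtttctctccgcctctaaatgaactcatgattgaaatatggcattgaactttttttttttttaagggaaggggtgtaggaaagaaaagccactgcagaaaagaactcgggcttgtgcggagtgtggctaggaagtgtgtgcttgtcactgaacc
The windows lie at chr6:17306085-17306384 (forward strand), chr6:17280935-17281234 (forward strand) and chr1:51288876-51289175 (forward strand).

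*Cav1*, whose product is the main structural protein of caveolae and is also found on lipid droplets, had a mean of 11554 normalized counts (counting interval 11468 to 11640). It was above 95.7% of the 15457 matched genes per kb of longest transcript and 98.3% per kb of coding length. *Cav2*, whose product forms mixed oligomers with caveolin-1 and depends on it to reach the cell surface, had a mean of 4670 normalized counts (4615 to 4725), and was above 88.0% of the matched genes per kb of longest transcript and 95.4% per kb of coding length. Per kb of coding length, the level of *Cav1* was 21637 and that of *Cav2* 9608, a ratio of 2.25 (counting interval 2.22 to 2.28). Per kb of longest transcript, the levels were 4208 and 1709, a ratio of 2.46 (2.43 to 2.50). *Cav1* was therefore above *Cav2* by either length. *Cav3*, the caveolin of muscle, has no row in the table, in which the lowest mean listed is 0.147, that of a single read in a single library.

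*Ptrf* (chr11:100956733-100970887, reverse strand) encodes cavin-1, without which caveolae do not form. Its mean of 15635 normalized counts (15535 to 15735) was the highest mean of the group, and it was above 96.0% of the matched genes per kb of longest transcript and 96.9% per kb of coding length. *Sdpr* (chr1:51289126-51302960, forward strand) encodes cavin-2, which binds phosphatidylserine and promotes membrane curvature. Its mean was 7985 normalized counts (7914 to 8057). *Prkcdbp* (chr7:105480083-105482300, reverse strand) encodes cavin-3, a partner of protein kinase C delta, and had a mean of 1362 normalized counts (1332 to 1391). *Ptrf* was 1.71 times as high as *Sdpr* per kb of longest transcript (1.69 to 1.73) and 5.47 times as high as *Prkcdbp* (5.34 to 5.59). Per kb of coding length, the same ratios were 2.09 and 7.62. *Murc*, the older name of *Cavin4*, the cavin of muscle, had a mean of 262 normalized counts and the lowest level of the family by either length. Of the summed cavin level per kb of longest transcript, *Ptrf* made up 55.7%, *Sdpr* 32.5%, *Prkcdbp* 10.2% and *Murc* 1.59%. The order *Ptrf*, *Sdpr*, *Prkcdbp*, *Murc* held for either length.

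Of the 45 pairs among the 10 genes, 4 changed their order between coding length and longest transcript. They were *Cav1* and *Ptrf*, *Cav2* and *Sdpr*, *Cav2* and *Pacsin2*, and *Ehd2* and *Flot2*, of which the former was higher by coding length and the latter by longest transcript. Per kb of coding length, *Cav1* was 1.63 times as high as *Ptrf* (1.61 to 1.64). Per kb of longest transcript, it was 0.939 times as high (0.930 to 0.949). The coding length of *Cav1* is 534 bases of a longest transcript of 2746 bases, whereas that of *Ptrf* is 1176 of 3491.

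**Figure D2:**
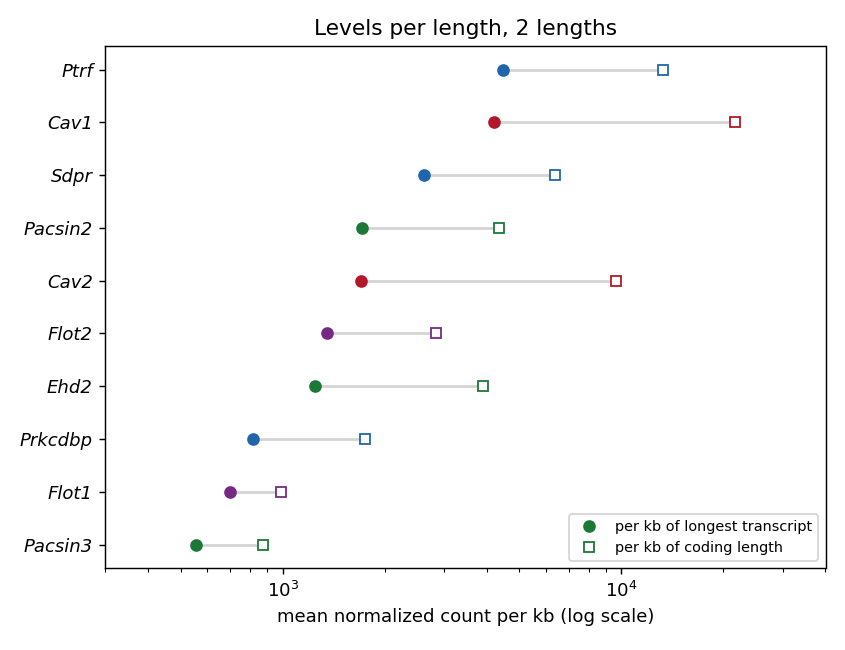
Mean normalized count per kb (log scale) for each of the 10 genes, by longest transcript (filled circles) and by coding length (open squares), sorted by the former. *Ptrf* and *Cav1* are the top pair by either length and change places between them, while *Flot1* and *Pacsin3* are the lowest pair by either length.

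Of the genes that shape the caveola neck, *Ehd2* (chr7:15946958-15967567, reverse strand) encodes an ATPase that forms rings at the neck and holds caveolae at the surface. It had a mean of 6360 normalized counts (6296 to 6424), and was above 83.5% of the matched genes per kb of longest transcript and 87.7% per kb of coding length. Other members of the EHD family serve in endosomal recycling. The levels per kb of longest transcript were 2494 for *Ehd1*, 1242 for *Ehd2*, 1089 for *Ehd4* and 0.133 for *Ehd3*. The mean of *Ehd3*, 0.487, corresponded to 3 reads, each in a different library. *Ehd2* thus made up 25.7% of the summed level of the family per kb of longest transcript and 33.6% per kb of coding length. Relative to *Cav1*, *Ehd2* was at 0.295 per kb of longest transcript (0.292 to 0.299) and at 0.180 per kb of coding length (0.178 to 0.183).

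*Pacsin2* (chr15:83375607-83464606, reverse strand) encodes an F-BAR protein that bends membranes and takes part in the making of caveolae. Its mean was 6339 normalized counts (6276 to 6403). The counting interval overlapped that of *Ehd2*, but the transcripts differ in length. *Pacsin3* (chr2:91255954-91264679, forward strand), best known from skeletal muscle, had the lowest mean of the group, 1110 normalized counts (1083 to 1137), and was above 68.4% of the matched genes per kb of longest transcript and 62.4% per kb of coding length. Per kb of longest transcript, *Pacsin2* was 3.08 times as high as *Pacsin3* (3.003 to 3.164), and per kb of coding length 4.98 times (4.85 to 5.11). *Pacsin1*, the neuronal member of the family, had a mean of 1.15 normalized counts, which corresponded to 7 reads in 5 of the 6 libraries. Per kb of longest transcript, *Pacsin2* lay next to *Cav2*, at 1717 and 1709, the only neighbouring pair of the 10 genes on that scale with overlapping counting intervals. This depended on the length, since per kb of coding length *Pacsin2* was at 4348 and *Cav2* at 9608, and no neighbouring pair overlapped there.

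The flotillins form hetero-oligomers with each other and are used as markers of cholesterol-rich membrane domains. *Flot2* (chr11:78037931-78060434, forward strand) had a mean of 3651 normalized counts (3603 to 3700), and was above 84.8% of the matched genes per kb of longest transcript and 83.3% per kb of coding length. *Flot1* (chr17:35823230-35832791, forward strand) had a mean of 1272 normalized counts (1244 to 1301), and was above 72.9% of the matched genes per kb of longest transcript and 64.7% per kb of coding length. *Flot2* was 1.94 times as high as *Flot1* per kb of longest transcript (1.89 to 1.99), and per kb of coding length 2.87 times (2.80 to 2.95). The coding lengths of both flotillins are 1284 bases, so the latter ratio is that of the means themselves. *Cav1* exceeded *Flot2* 3.11-fold per kb of longest transcript and 7.61-fold per kb of coding length.

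**Figure D3:**
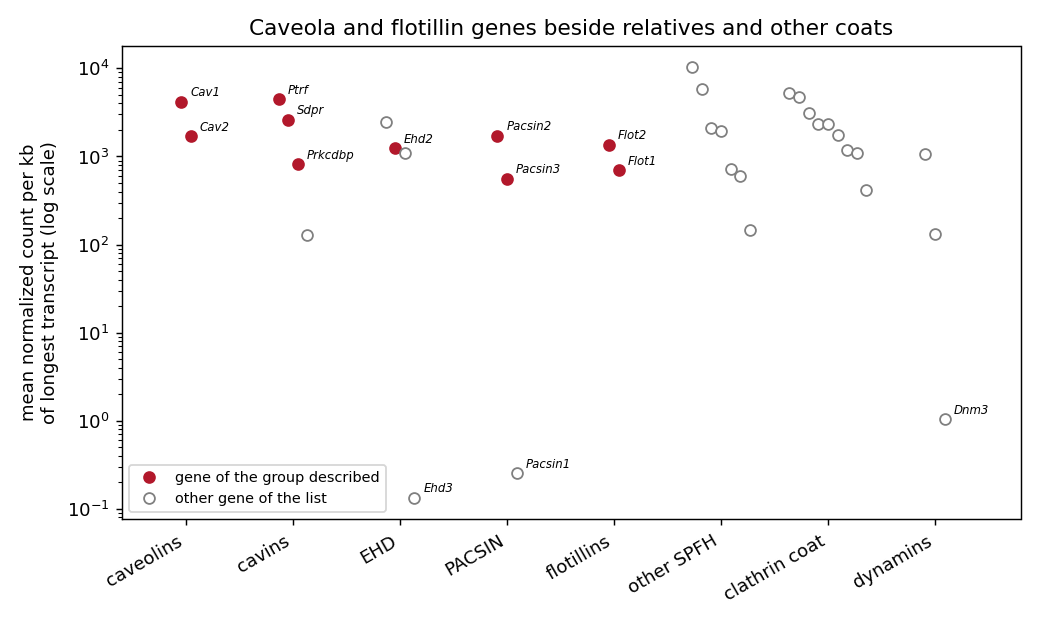
Mean normalized count per kb of longest transcript (log scale) for the 10 genes (filled red) and for other genes of the same families and of other membrane coats (open grey), each point a gene. Within their families *Ehd3* and *Pacsin1* lie below 1, while the 10 genes lie between 557 and 4479.

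Reads shared between relatives could distort such ratios. Among the 17 pairs of relatives in the caveolin, cavin, EHD, PACSIN and flotillin families, the longest identical run in the same orientation between any of their protein-coding transcripts was 40 bases, between *Ehd1* and *Ehd3*. Reads of 150 bases per the labels are longer than this run. Between *Cav1* and *Cav2* the longest run was 12 bases. Runs with mismatches and loci outside these families were not compared, so reads shared in those ways were not tested. Exons of genes on the opposite strand overlap *Prkcdbp* over 374 bases (*Gm45667*) and *Pacsin3* over 42 bases (*Gm17281*). The kit was strand-specific per the labels, but the paper's methods name a TruSeq RNA guide and do not call it stranded. The strand setting used in counting is not given in the sources used here. The means of *Prkcdbp* and *Pacsin3* may therefore hold reads of these transcripts.

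Promoter windows were matched for 8 of the 10 genes, all but *Prkcdbp* and *Flot1*. Their GC content ran from 43.3% in *Sdpr* to 69.7% in *Pacsin3*, and 7 of 8 were above the median of all 32851 windows, 52.7%. In *Cav1* it was 59.3% and in *Cav2* 64.3%. A GC box was present in 7 of 8 windows, all but that of *Sdpr*, against 35.7% of all windows. A CCAAT box was present in 7 of 8, all but that of *Cav1*, against 37.4% of all windows. A TATA box was present in *Cav1* alone, on the opposite strand, against 13.6% of all windows. It lay near the upstream end of the window, away from the start site. The CArG box, searched by its consensus on both strands, was in 0 of 8 windows and 1.63% of all. For *Ptrf* and *Pacsin3* the window nearest to the start of the longest transcript was 270 and 651 bases away from it. The windows of all genes were neither limited to a single window per gene nor matched to the 8 genes in expression level. The shares are therefore not like for like, and no test was made. All boxes are matches of letters, and binding was not measured.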

How the data were processed

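RNA of 3 *Ms4a15* OE and 3 control libraries was poly(A) selected and sequenced. Per the paper's methods, the authors used STAR for alignment to mm10, HTSeq-count for counting and DESeq2 for differential expression. The submitters' processing notes also list TopHat, Cufflinks and Cuffdiff. The labels differ from the methods in read length, extraction kit and library kit. The signal used is a deposited column in which the authors averaged each gene's size-factor-normalized count across the 6 libraries. The other columns (log2 fold change, standard error, p-value, adjusted p-value, direction) hold the authors' own comparison and were not used, so the planned test between the groups was not run.

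The genes and lists were chosen with earlier results of these data known. All 10 genes are named, and others of the lists where a result turns on them; 1 gene of a list is not reported here. Lengths and positions came from GENCODE vM21 in place of the planned RefSeq proteins, so protein identities were not computed. Symbols were matched for 15457 of 19078 genes, 1437 of them through RefSeq synonyms, and for 94.9% of those with a mean of at least 100. Where a gene has several promoter windows, the nearest to the start of the longest transcript was taken. Coding length leaves out the stop codon. Counting intervals are exact Poisson intervals of 6 times the mean, with every size factor taken as 1, and intervals of ratios are exact binomial. Size factors and whole reads were solved from low means to a tolerance of 1e-06, and the procedure was tested on simulated data. Python 3.11.15, numpy 2.4.6, pandas 2.3.3, scipy 1.17.1 and matplotlib 3.10.9 were used.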

Additional observations from a re-analysis of the deposited data

How the results depend on the processing

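No paired analysis was possible because the values used are means over all 6 libraries. For the same reason other scalings and tools, a filter on counts of single libraries, leaving out each replicate and a pseudocount were not run. Without the 10 genes of highest mean, the share of the summed means taken by the 10 caveola and flotillin genes was 0.154% in place of 0.146%. The median of the 10 genes per kb of coding length, 4126, became 1531 per kb of longest transcript, 1718 per kb of median transcript and 1373 per kb of the union of exons, the last added after seeing the data. The median percentage of genes with a lower level, 90.7% over all 19078 genes, became 86.2% among genes whose mean reached 10 normalized counts. Among the 15457 matched genes it became 88.3% per coding length and 86.4% per longest transcript, the latter also added afterwards. For these per-length values the set of genes changed together with the scale. The widest counting interval, 2.41% to either side, was 2.56% at the lowest and 2.26% at the highest size factor. Of the 45 pairs among the 10 genes, 4 changed order between coding length and longest transcript, and of 12 chosen ratios 1 did so. Order changes by median transcript were not counted over the pairs. On that scale *Cav2*, at 4794 per kb, was above *Ptrf*, at 4479, whereas *Ptrf* was above *Cav2* by coding length and longest transcript. The log2 ratio of *Cav1* over *Ptrf*, 0.70 by coding length and 1.37 by median transcript, was -0.090 by longest transcript and -0.26 by the union of exons. The alternative's own construction accounts for this, since the means stay the same and the lengths alone change. Depth limits the levels of the 10 genes little, but the spread between libraries is not in any interval here.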

Other observations

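Other membrane coats and relatives of the flotillins were also expressed in these cells. The 9 clathrin coat genes, which serve receptor uptake, had a median of 2315 normalized counts per kb of longest transcript, with *Cltc*, the heavy chain, at 5268 and *Cltb*, a light chain, at 416. The 10 caveola and flotillin genes had a median of 1531 on the same scale, and all 15457 matched genes one of 188. *Dnm2*, the dynamin found in most tissues, was at 1065, *Dnm1* at 132 and *Dnm3* at 1.03.

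Flotillins share the SPFH domain with the prohibitins, stomatins and erlins. Of 8 other SPFH genes described, 7 have a row in the table and each of these reached 10 normalized counts on average. The same mean was reached by 12914 of all 19078 genes. Of the 7, the mitochondrial prohibitins were the highest per kb of longest transcript, with *Phb2* at 10251 and *Phb* at 5884. *Stoml1* was the lowest, at 145, below the median of 188 for all matched genes. *Erlin1* and *Erlin2*, whose products bind IP3 receptors of the ER, were at 1949 and 595. *Erlin2* lay below *Flot1*, at 697, on this scale, but above it per kb of coding length, at 2821 against 991. No test was made between these lists.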
